A study of Mus musculus with 34 samples.

Results

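The expression of 9 complement genes, *C3*, *C4b*, *C2*, *Cfb*, *Cfi*, *Cfp*, *C1ra*, *C1s1* and *C3ar1*, was examined in the kidneys of 34 mice. The genes were taken as a named list by symbol, with no threshold on a measured value, although earlier results of these data were known when the list was made. All 9 were found among the 23509 genes of the count tables, and all 9 passed the filter on low counts that left 15644 genes for testing.

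Complement is a cascade of plasma proteases in which antibody complexes (classical pathway), surface sugars (lectin pathway) or spontaneous turnover (alternative pathway) lead to cleavage of C3. The fragments tag surfaces, attract myeloid cells and can seed a pore in membranes, and soluble and membrane-bound inhibitors limit each step. The liver makes most circulating complement, while kidney tubule cells, fibroblasts and macrophages also transcribe several components.

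The mice were C57BL6 and their kidneys were harvested at postnatal day 28 (P28). *Pkd2*-KO mice, in which floxed alleles of the cystic kidney disease gene *Pkd2* are deleted by a Cre driven from the kidney-tubule promoter Pkhd1, received PBS (n = 11) or RGLS4326 (n = 11). A figure legend of the study counts fewer PBS mice than the labels, and all PBS libraries were used here. RGLS4326, a short oligonucleotide directed at the seed of the microRNA miR-17, was given subcutaneously at 20 mg per kg on P10, P11, P12 and P19. Wildtype mice of the same strain without treatment (UNT, n = 12) were the controls, so genotype and injection differ together between UNT and PBS. The labels write the genotype as Pdk2KO, and whole-kidney *Pkd2* mRNA had a median of 274 CPM (counts scaled to library size) in UNT, 165 in PBS and 210 in RGLS4326 kidneys. This was −0.78 ± 0.09 (SE) on the log2 scale in PBS against UNT and 0.39 ± 0.09 in RGLS4326 against PBS.

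Each library held 17603122 to 54981992 reads assigned to genes, and the lowest count of any member in any library was 27. The numbering of libraries restarts in 3 series, called runs here, each with 3 or 4 mice of every group. What a run stands for was not given in the sources used here. The Y-linked gene *Ddx3y* marked 6 of 12 UNT, 6 of 11 PBS and 5 of 11 RGLS4326 mice as male. A set of 4 RGLS4326 libraries stood apart from the other 7, with 11.3% to 12.0% of reads in no gene against 4.94% to 8.92%. In PBS libraries this share was 5.18% to 9.0% and in UNT libraries 9.84% to 11.3%. The fits of RGLS4326 against PBS and against UNT were therefore also run without these 4 libraries, while the correlations, marker sums, sex tests and test of run by treatment below include them. Of the 4, 3 were the RGLS4326 mice of run 2.

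Because RGLS4326 targets miR-17, the seed (bases 2 to 8, in capitals) is shown for 2 members of the family that share it, from RefSeq, build GRCm38.p6. miR-17-5p lies at chr14:115043684-115043706 on the plus strand and miR-106b-5p at chr5:138165787-138165807 on the minus strand.
mmu-miR-17-5p: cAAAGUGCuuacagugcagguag
mmu-miR-106b-5p: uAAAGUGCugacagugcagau
The longest annotated 3′UTR of each member was searched for the seed matches GCACTTT and CACTTTA. A match was found in 1 of the 9 members, *C3ar1*, which has a 3′UTR of 2685 bases, and the site (CACTTTA, at base 67 of the UTR) is shown in capitals with its flanks.
C3ar1 3′UTR site: tgtgagcaggaCACTTTAgacaatttgg
Of the 14193 tested genes with an annotated 3′UTR, 3011 (21.2%) held such a match. The other 8 members have 3′UTRs of 43 (*C3*) to 599 bases (*C1s1*), and these letters were not in them.

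Promoter sequences, the 300 bases around the start of transcription, were examined because most members moved together between groups. Entries were matched for *C3*, *Cfp*, *C1ra*, *C1s1* and *C3ar1* (RefSeq, GRCm38.p6). The letters searched on both strands were TTGCNNAA (C/EBP), TTCNNNGAA (STAT), GGNNNTTCC (NF-kB) and GAAANNGAA (IRF), which occur in 10.8%, 8.47%, 18.4% and 8.57% of 27025 promoters. Matches are in capitals in the 4 promoters that held any.
C3, chr17:57228087-57228386, minus strand: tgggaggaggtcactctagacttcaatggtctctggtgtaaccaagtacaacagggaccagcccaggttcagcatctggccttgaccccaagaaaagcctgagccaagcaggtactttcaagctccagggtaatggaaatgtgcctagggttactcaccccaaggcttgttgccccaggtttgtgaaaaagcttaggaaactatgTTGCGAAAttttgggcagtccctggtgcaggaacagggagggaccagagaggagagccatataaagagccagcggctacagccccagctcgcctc
C3ar1, chr6:122856108-122856407, minus strand: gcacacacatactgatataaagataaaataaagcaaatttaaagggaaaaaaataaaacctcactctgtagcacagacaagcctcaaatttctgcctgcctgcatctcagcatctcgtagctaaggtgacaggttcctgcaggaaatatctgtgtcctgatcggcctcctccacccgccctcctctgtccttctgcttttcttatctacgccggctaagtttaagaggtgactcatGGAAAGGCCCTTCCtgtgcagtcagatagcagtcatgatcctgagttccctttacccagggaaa
C1ra, chr6:124512371-124512670, plus strand: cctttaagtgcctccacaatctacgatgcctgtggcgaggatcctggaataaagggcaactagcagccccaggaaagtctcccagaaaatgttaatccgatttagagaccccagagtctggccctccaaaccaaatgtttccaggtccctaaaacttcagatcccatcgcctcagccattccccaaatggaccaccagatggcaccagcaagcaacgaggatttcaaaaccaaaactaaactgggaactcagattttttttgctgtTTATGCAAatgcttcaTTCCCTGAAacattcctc
C1s1, chr6:124542310-124542609, minus strand: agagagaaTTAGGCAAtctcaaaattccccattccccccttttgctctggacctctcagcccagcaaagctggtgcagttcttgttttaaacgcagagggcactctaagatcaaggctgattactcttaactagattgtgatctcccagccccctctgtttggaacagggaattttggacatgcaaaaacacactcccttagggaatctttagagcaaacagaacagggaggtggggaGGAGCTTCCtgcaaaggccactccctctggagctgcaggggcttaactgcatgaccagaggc
*C3*, *C1ra* and *C1s1* each held a C/EBP match, first base at −45, 17 and −242 from the start site. *C1ra* also held a STAT match at 33, *C1s1* an NF-kB match at −12, and *C3ar1* held 2 overlapping NF-kB matches at −14 and −9. For *C1ra* the start site of this entry lies inside the gene, whose annotated start is 124512405, and 17 and 33 count from that inner site. The *Cfp* promoter held none of the 4. With motifs this short and this frequent, a match describes the letters only.

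The question of the first comparison was how complement transcripts differ between cystic and normal kidneys. In PBS kidneys 8 of the 9 genes were higher than in UNT, and *Cfb* was lower, at a Benjamini-Hochberg adjusted p under 0.05 by edgeR's quasi-likelihood test. In this contrast 82.1% of all tested genes were called, 43.1% as higher and 39% as lower, so that a call by itself sets no gene apart, and the sizes are of more use. The median log2 fold change of the 9 was 1.80, against 0.04 over all tested genes. Together the 9 genes took a median of 0.0468% of the library size after TMM scaling in UNT (range 0.0406% to 0.0508%) and 0.221% in PBS kidneys (0.126% to 0.275%). These are not raw shares of reads. *C3* alone made up a median of 4.79% of these complement reads in UNT and 62.1% in PBS kidneys.

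**Figure D1:**
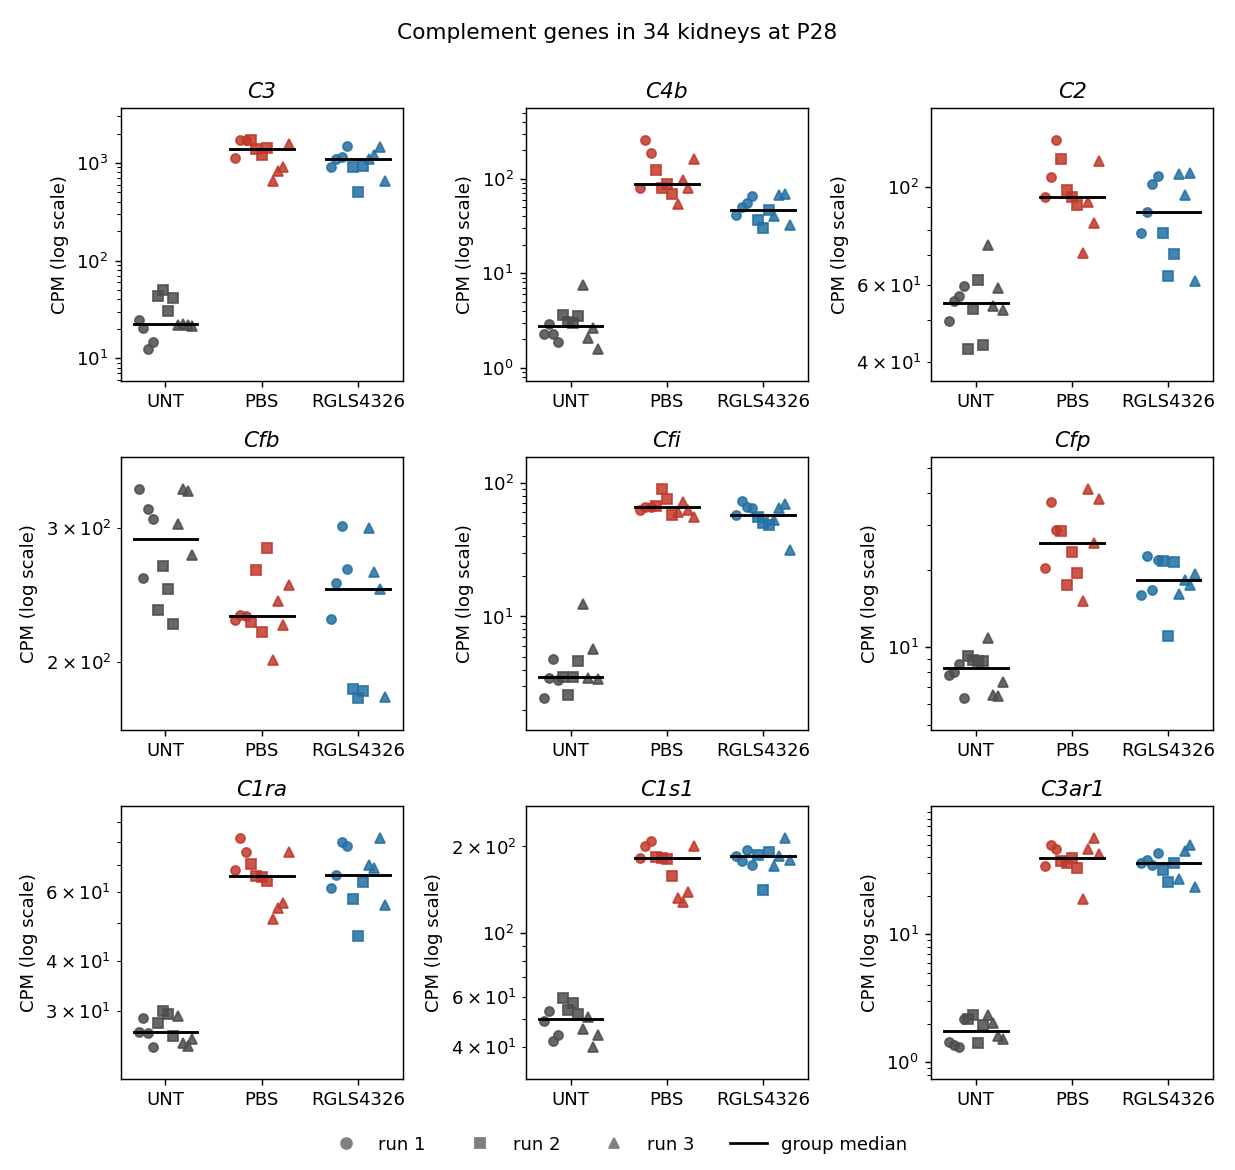
Levels of the 9 complement genes in each of 34 kidneys, in TMM-scaled CPM on a log axis, by group (UNT, PBS, RGLS4326); marker shape gives the run and the black line the group median. *C3*, *C4b*, *Cfi* and *C3ar1* sit over 10-fold higher in both *Pkd2*-KO groups than in UNT, and *Cfb* does not.

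Scaled to the length of annotated exons (CPM per kilobase), the order of the genes changed between groups. In UNT kidneys *Cfb* was highest at 102 ± 14.5 CPM per kilobase (SD, n = 12). *C1s1* (15.8 ± 1.957), *C2* (14.2 ± 2.14) and *C1ra* (9.02 ± 0.68) followed, and of these neighbours *C1s1* and *C2* did not differ beyond their spread. *C3* (5.23 ± 2.26) and *Cfp* (4.69 ± 0.78) lay within each other's spread, and *Cfi* (2.01 ± 1.21), *C4b* (0.53 ± 0.28) and *C3ar1* (0.42 ± 0.09) were lowest, each within reach of its neighbour's spread.

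In PBS kidneys *C3* led at 252 ± 74.3 CPM per kilobase (SD, n = 11), before *Cfb* at 83.5 ± 7.99 and *C1s1* at 55.1 ± 9.19. *Cfi* (30.0 ± 4.42), *C2* (25.6 ± 4.19), *C1ra* (22.2 ± 3.19), *C4b* (20.4 ± 10.9), *Cfp* (15.5 ± 5.09) and *C3ar1* (9.30 ± 2.35) formed a series in which no neighbours differed beyond their spread. In RGLS4326 kidneys *C3* (202 ± 57.7), *Cfb* (83.1 ± 16.7) and *C1s1* (58.05 ± 5.74) again led, and *C4b* (8.51 ± 2.44) and *C3ar1* (8.25 ± 1.93) were lowest.

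**Figure D2:**
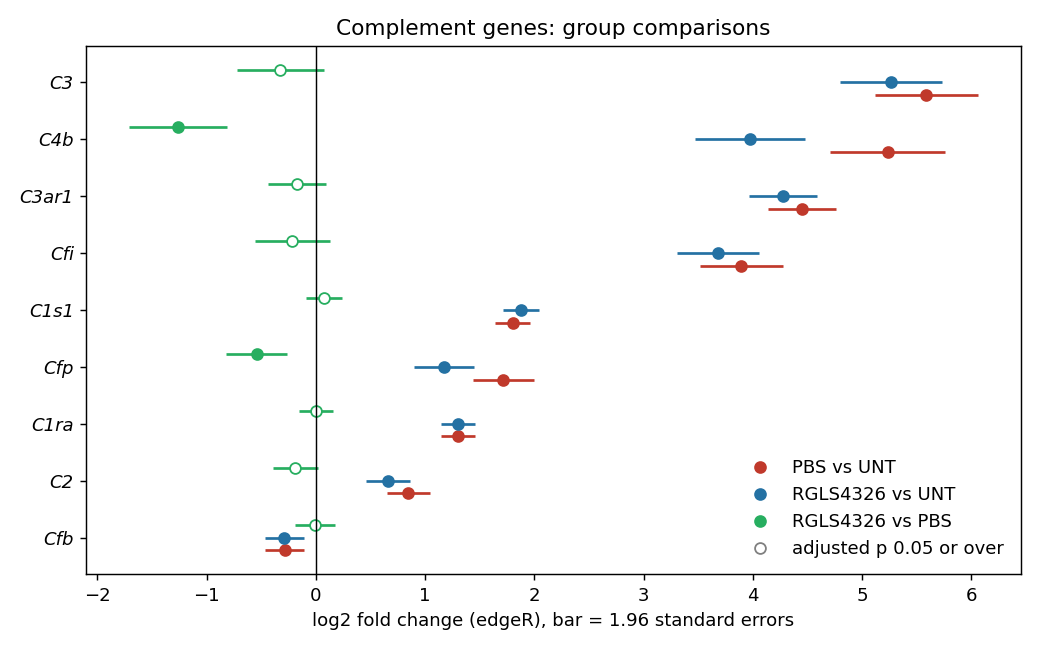
Log2 fold changes of the 9 genes from edgeR in PBS vs UNT, RGLS4326 vs UNT and RGLS4326 vs PBS, with bars of the approximate 95% interval; open points have an adjusted p of 0.05 or over. Changes against UNT run from −0.29 (*Cfb*) to 5.59 (*C3*), while in RGLS4326 vs PBS only *C4b* and *Cfp* have filled points.

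Among the proteases that start the classical pathway, *C1ra* encodes C1r, which activates C1s, and *C1s1* encodes C1s, which cleaves C4 and C2. *C1ra* (chromosome 6, 124512405 to 124523443, plus strand) had a lowest, median and highest level of 24.2, 26.4 and 29.9 CPM in UNT, 51.2, 65.8 and 81.7 in PBS and 46.3, 66.2 and 82.0 in RGLS4326 kidneys. No *Pkd2*-KO kidney overlapped the UNT range, and the ranges of both *Pkd2*-KO groups overlapped, with 1 treated kidney below and 1 above the PBS range. It rose by 1.30 ± 0.08 on the log2 scale in PBS against UNT (adjusted p = 7.4e-17) and differed by 0.001 ± 0.08 between RGLS4326 and PBS (adjusted p = 0.992, approximate 95% interval −0.16 to 0.16).

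*C1s1* (listed as C1s, chromosome 6, 124530345 to 124542359, minus strand) had levels of 39.96, 50.2 and 59.4 CPM in UNT, 128, 183 and 208 in PBS and 141, 185 and 214 in RGLS4326 kidneys. Again the UNT kidneys stood below all others. The gene rose 3.49-fold in PBS (log2 1.80 ± 0.08, adjusted p = 1.25e-20), and its difference between RGLS4326 and PBS was 0.07 ± 0.08 (adjusted p = 0.485, interval −0.09 to 0.24).

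C4 and C2 are the substrates of C1s and form the C3 convertase of the classical and lectin pathways. *C4b* (chromosome 17, 34728380 to 34743882, minus strand), which encodes C4, had levels of 1.57, 2.76 and 7.58 CPM in UNT, 53.6, 88.4 and 259 in PBS and 30.2, 46.4 and 68.3 in RGLS4326 kidneys. All PBS kidneys lay above all UNT kidneys. The highest UNT value belonged to replicate 9, which also had the highest *Cfi* level of its group, and the other 11 UNT kidneys were at 3.66 CPM or less. *C4b* rose 37.7-fold in PBS against UNT (log2 5.24 ± 0.27, adjusted p = 3.42e-19), and by 6.18, 4.73 and 4.79 on the log2 scale within runs 1, 2 and 3.

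*C2* (chromosome 17, 34862604 to 34898265, minus strand), the protease that pairs with C4, had levels of 42.8, 54.5 and 73.8 CPM in UNT, 70.9, 95.1 and 128 in PBS and 61.1, 88.0 and 108 in RGLS4326 kidneys. The UNT and PBS ranges met, and 10 of 11 PBS kidneys were above the highest UNT value. The rise in PBS was 1.80-fold (log2 0.85 ± 0.10, adjusted p = 2.01e-09). With the percentage of reads outside genes as a covariate it was 0.47 ± 0.12 on the log2 scale (adjusted p = 0.00109). UNT and PBS libraries did not overlap in that percentage. Although *C2*, *Cfb* and *C4b* are neighbours within the same stretch of chromosome 17, their log2 changes in PBS against UNT were thus 0.85, −0.28 and 5.24.

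*C3* (chromosome 17, 57203970 to 57228136, minus strand), the protein on which all 3 pathways converge, showed the largest change of the 9. Its levels were 12.3, 22.1 and 49.4 CPM in UNT, 654, 1407 and 1730 in PBS and 507, 1087 and 1477 in RGLS4326 kidneys. The lowest PBS value exceeded the highest UNT value by an order of magnitude. Within UNT, the 4 mice of run 2 had 30.1 to 49.4 CPM and the 8 mice of the other runs 12.3 to 24.4. *C3* rose 48.1-fold in PBS (log2 5.59 ± 0.24, adjusted p = 2.91e-21), and within runs 1, 2 and 3 the difference of mean log2 CPM was 6.43, 5.15 and 5.42.

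In the alternative pathway, factor B (*Cfb*) binds C3b to form a convertase, and properdin (*Cfp*), made mostly by leukocytes, stabilises it. *Cfb* (chromosome 17, 34856374 to 34862518, minus strand) had levels of 224, 290 and 337 CPM in UNT, 201, 230 and 282 in PBS and 179, 248.9 and 302 in RGLS4326 kidneys. The groups overlapped, and all 11 PBS kidneys were below the UNT median. The gene fell by 0.28 ± 0.09 on the log2 scale in PBS (adjusted p = 0.00503), and this was not seen in run 2, where the log2 fold change was −0.0090 (adjusted p = 0.935).

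*Cfp* (chromosome X, 20925454 to 20931555, minus strand) had levels of 6.33, 8.30 and 10.9 CPM in UNT, 15.1, 25.5 and 41.6 in PBS and 11.0, 18.3 and 22.7 in RGLS4326 kidneys. Every *Pkd2*-KO kidney was above every UNT kidney. The rise in PBS was 3.29-fold (log2 1.72 ± 0.14, adjusted p = 2.03e-13).

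*Cfi*, which encodes the inhibitor factor I that cleaves C3b and C4b, lies on chromosome 3 (129835884 to 129875332, plus strand). Its levels were 2.45, 3.50 and 12.5 CPM in UNT, 55.2, 65.7 and 90.0 in PBS and 31.6, 57.5 and 72.4 in RGLS4326 kidneys. Without overlap between UNT and PBS, *Cfi* rose 14.9-fold (log2 3.90 ± 0.19, adjusted p = 1.37e-19), and by 4.15, 4.31 and 3.29 within runs 1, 2 and 3.

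*C3ar1* (chromosome 6, 122847138 to 122856161, minus strand), the receptor for the fragment C3a on myeloid cells, had levels of 1.31, 1.77 and 2.36 CPM in UNT, 18.8, 39.6 and 56.7 in PBS and 23.5, 35.98 and 49.5 in RGLS4326 kidneys. It rose 21.9-fold in PBS (log2 4.45 ± 0.16, adjusted p = 1.92e-23), and the difference of mean log2 CPM was 4.23 to 4.80 within the runs.

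The second comparison asked how the genes differed between RGLS4326 and PBS kidneys. No kidney here received a control oligonucleotide, so inhibition of miR-17 and injection of any oligonucleotide cannot be told apart. Of the 9, 2 were lower in RGLS4326 than in PBS kidneys, *C4b* and *Cfp*, and none was higher, while 33.8% of all tested genes were called in this contrast, 18.5% as lower and 15.3% as higher. With this share over all genes, the count of 2 of 9 by itself sets the members apart in no way. The median log2 fold change of the 9 was −0.19, against 0.002 over all tested genes.

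*C4b* fell by 1.26 ± 0.23 on the log2 scale, or 2.40-fold (adjusted p = 0.000934). All 11 treated kidneys were below the PBS median, 7 of them below the lowest PBS kidney, and the groups overlapped between 53.6 and 68.3 CPM. The PBS values were spread widely, with *C4b* at 259 CPM in replicate 2, 186 in replicate 3 and 164 in replicate 11. Without the 4 libraries that stood apart the log2 fold change was −1.07 ± 0.27 (adjusted p = 0.0374), a setting in which 2.1% of all tested genes were called. Within runs 1, 2 and 3 it was −1.71 (adjusted p = 0.0426), −1.24 (0.00332) and −0.92 (0.275). With the percentage of reads outside genes as a covariate it was −1.01 ± 0.25 (adjusted p = 0.0505), and 0.569% of all genes were called.

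*Cfp* fell by 0.54 ± 0.14 on the log2 scale, or 1.46-fold (adjusted p = 0.00674). All 11 treated kidneys were below the PBS median of 25.5 CPM, and the ranges overlapped between 15.1 and 22.7 CPM. The size was −0.54 ± 0.16 without the 4 libraries, at an adjusted p of 0.0598, and −0.46 ± 0.17 with the covariate, at 0.136. The values within runs 1, 2 and 3 were −0.56, −0.28 and −0.75, of which none passed the test on its own (adjusted p = 0.131, 0.35 and 0.262).

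The other 7 genes did not pass the test. *C3* differed by −0.32 ± 0.21 (adjusted p = 0.213, approximate 95% interval −0.73 to 0.08), *Cfi* by −0.21 ± 0.17 (−0.56 to 0.13) and *C3ar1*, the member with a miR-17 seed match, by −0.17 ± 0.14 (−0.44 to 0.10). *C2* differed by −0.19 ± 0.10 (−0.39 to 0.02) and *Cfb* by −0.007 ± 0.09 (−0.19 to 0.18). The intervals of *C1ra*, *C1s1* and *Cfb* were the narrowest of the 9, and that of *C3* among the widest.

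**Figure D3:**
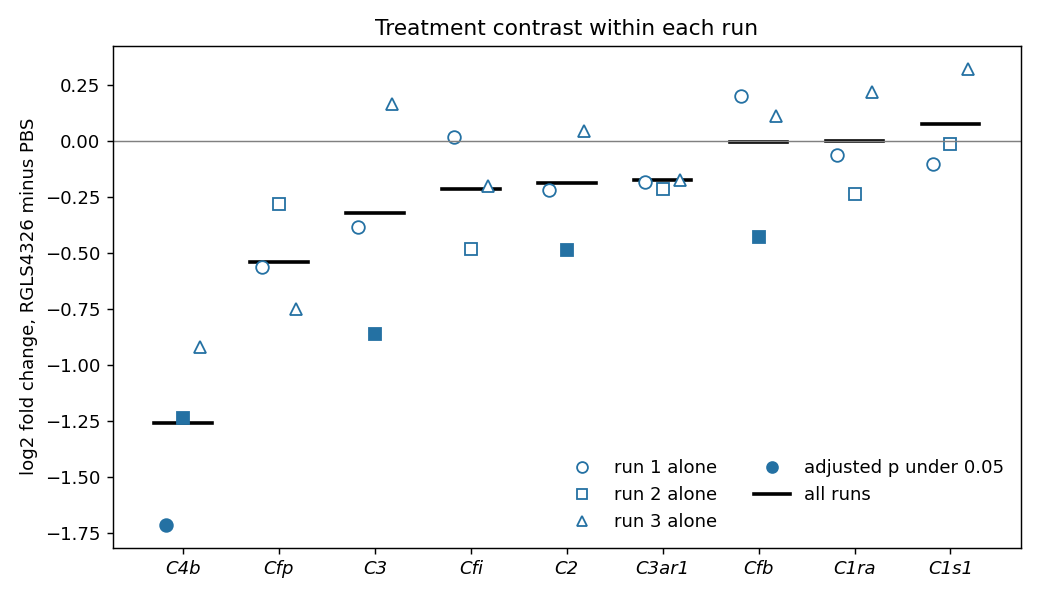
Log2 fold change of RGLS4326 against PBS for each of the 9 genes within run 1, 2 or 3 (markers, filled where the adjusted p is under 0.05) and over all runs (black lines). *C4b*, *Cfp* and *C3ar1* lie below 0 in every run, while *C3*, *C2* and *Cfb* are filled in run 2 only.

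Run 2 alone gave another set of calls, with *C3* at −0.86 (adjusted p = 0.0175), *C2* at −0.49 (0.0203), *Cfb* at −0.43 (0.0126) and *C4b* at −1.24. Over all tested genes, run 2 alone called 4065 of 15944, run 1 alone 54 and run 3 alone 0. The 3 RGLS4326 libraries of run 2 belong to the 4 with a high share of reads in no gene. In those 4 libraries *Cfb* was at 179 to 184 CPM, below the 227 to 302 CPM of the other 7 and below all PBS kidneys. *C2* was at 61.1 to 78.7 CPM against 78.8 to 108 in the other 7, and *C3* at 507 to 938 against 906 to 1477. *C1s1* (141 to 192 against 171 to 214) and *Cfp* (11.0 to 21.7 against 16.0 to 22.7) overlapped. Without these libraries *C3* differed from PBS by −0.11 ± 0.22, *C2* by −0.02 ± 0.10 and *Cfb* by 0.17 ± 0.08, none of which passed the test (adjusted p = 0.767, 0.924 and 0.191). The interaction of treatment and run did not pass the test for any of the 9 (lowest adjusted p = 0.865). It passed for 0 of 15233 genes in edgeR, with 796 at an unadjusted p under 0.05, among them *Cfb* (p = 0.00553) and *C3* (p = 0.0413).

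In the third comparison, of RGLS4326 with UNT kidneys, all 9 genes were called, 8 as higher and *Cfb* as lower, while 77.7% of all tested genes were called, 40.8% as higher and 36.9% as lower. *C3* was 38.5-fold higher (log2 5.27 ± 0.24), *C3ar1* 19.4-fold (4.28 ± 0.16), *C4b* 15.7-fold (3.98 ± 0.26) and *Cfi* 12.8-fold (3.68 ± 0.19). Within runs 1, 2 and 3 the log2 difference was 5.98, 4.24 and 5.66 for *C3*, 4.47, 3.50 and 3.87 for *C4b* and 4.17, 3.83 and 3.09 for *Cfi*. *C1s1* (1.88 ± 0.08), *C1ra* (1.30 ± 0.08), *Cfp* (1.17 ± 0.14) and *C2* (0.66 ± 0.10) were also higher on the log2 scale. Treated kidneys reached the UNT range for *C2* and *Cfb* only. How many of all tested genes were likewise free of overlap was not counted, so this does not set the members apart. *Cfb* was lower by 0.29 ± 0.09 (adjusted p = 0.00452), and without the 4 libraries by 0.11 ± 0.08 (adjusted p = 0.217). Both comparisons with RGLS4326 share the treated kidneys, and both comparisons with PBS the PBS kidneys, so the values of each are given side by side and are not independent.

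To place the 9 genes in the pathway, a list of 54 complement genes that includes them was counted by role. Of these, 45 were tested. In PBS against UNT, 29 were higher, 13 lower and 3 not called, with a median log2 fold change of 1.80. Over all tested genes 43.1% were higher and 39% lower, against which the counts by role, of few genes each, are a description. Receptors had a median of 4.01 (7 of 8 higher), the classical pathway 1.55 (7 of 10 higher, 2 lower) and membrane inhibitors −0.22 (2 of 5 higher, 3 lower). By group of function, 3 of 4 alternative pathway genes were higher and 1 lower, 3 of 5 terminal genes higher and 2 lower, 5 of 9 fluid-phase inhibitors higher and 3 lower, and 2 of 4 lectin pathway genes higher and 1 lower.

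The largest changes outside the 9 genes were in *Itgam*, a chain of complement receptor 3 (log2 4.95 ± 0.15), and *C5ar1*, the C5a receptor (4.52 ± 0.21). The 3 chains of C1q, the recognition unit of the classical pathway, rose alike, *C1qa* by 4.504, *C1qb* by 4.44 and *C1qc* by 4.34. *Vsig4*, a macrophage receptor for C3b, rose by 4.29 ± 0.40 from at most 0.182 CPM, and *C6*, of the membrane attack complex, by 4.06 ± 0.33. *Fcna*, a ficolin of the lectin pathway, rose by 3.93 ± 0.38 and *Masp1*, its protease, by 3.74 ± 0.20. *C8a*, also of the membrane attack complex, fell by 4.001 ± 0.54 to at most 0.464 CPM in *Pkd2*-KO kidneys. UNT replicate 3 had the highest *C8a* level, 11.5 CPM against a group median of 1.53, and without it the log2 fold change was −3.30. Most exon bases of *Itgam* (68.7%) lie in a second gene of the same strand, Gm49368, which is not listed in the count tables.

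Between RGLS4326 and PBS kidneys the list had a median of −0.13, and 12 of its 45 tested genes fell while 4 rose. These 16 of 45 lie near the 33.8% called over all genes. *Vsig4* fell by 2.57 ± 0.35, *Fcna* by 2.25 ± 0.35, *Cfd*, which encodes the factor D that cleaves factor B, by 1.58 ± 0.31 and *C6* by 1.36 ± 0.28. Of these, *Vsig4* rests on few reads, 13 to 73 in PBS and 1 to 11 in RGLS4326 libraries. *Fcna* had 92 to 638 reads in PBS and 11 to 108 in RGLS4326 libraries, and *C6* 43 to 433 and 11 to 102. *C5ar1* fell by 0.69 ± 0.18, *C1qb* by 0.61 ± 0.16 and *Clu*, which encodes the fluid-phase inhibitor clusterin, by 0.71 ± 0.19, and none of these 3 passed without the 4 libraries that stood apart (log2 −0.55 ± 0.20, −0.43 ± 0.18 and −0.51 ± 0.19, adjusted p = 0.0974, 0.128 and 0.102). Higher levels were seen for *C7*, of the membrane attack complex (0.58 ± 0.13), and for *Cd46*, a membrane cofactor of factor I (0.99 ± 0.32). Part of *Cd46* overlaps the antisense transcript A330023F24Rik (14.2% of its exon bases), the strand setting of the counting was not given, and without the 4 libraries its difference was 0.27 ± 0.32, which did not pass. Without the 4 libraries that stood apart, 7 of the list were called, among them *C4b*, *Fcna*, *Cfd*, *C6*, *C7* and *Vsig4*, where 2.1% of all tested genes were called. With the covariate 2 were called, *Fcna* and *Vsig4*, against 0.569% of all genes.

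**Figure D4:**
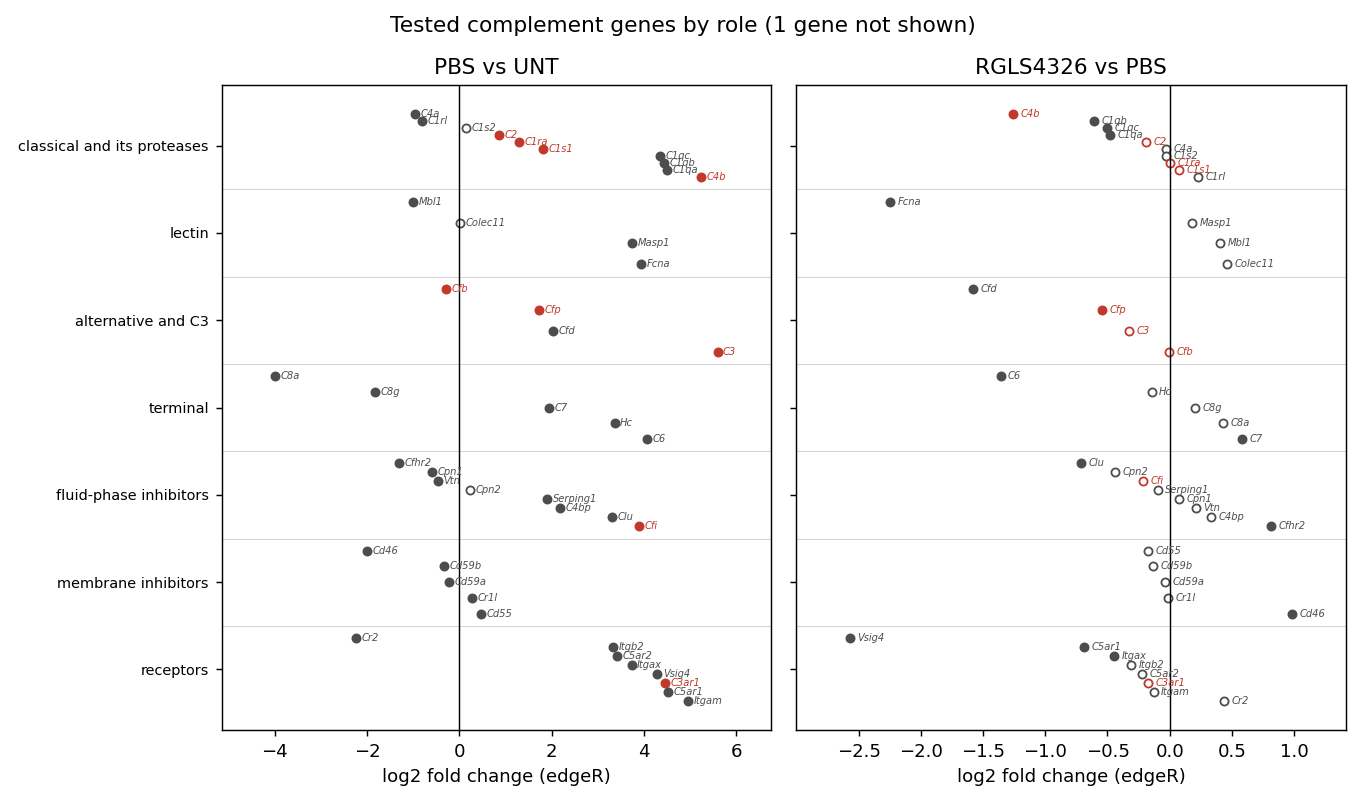
Log2 fold changes from edgeR of the tested complement genes by role (1 gene not shown), in PBS vs UNT (left) and RGLS4326 vs PBS (right); the 9 genes of the report are red, and open points have an adjusted p of 0.05 or over. Receptors other than *Cr2* and the C1q chains lie above 3 on the left, and on the right *C4b* is the lowest of the red points at −1.26.

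Reads were counted only where they mapped uniquely, so near copies matter for some members. Of the 75-base windows in the longest transcript, 23.5% of *C4b* are shared with *C4a*, 40.1% of *C1ra* with *C1rb* and 14.7% of *C1s1* with *C1s2*, while *C3*, *Cfi*, *Cfp* and *C3ar1* shared none with another gene. In UNT kidneys *C4a* (1.27 to 2.11 CPM) overlapped the range of *C4b*, and in *Pkd2*-KO kidneys all *C4a* levels were below all *C4b* levels. *C4a* fell by 0.96 ± 0.23 in PBS against UNT, from a median of 1.53 to 0.769 CPM, *C1s2* (listed as Gm5077) was at 0.477 to 1.46 CPM in all groups, and *C1rb* was at 0.138 CPM or less. *C1rl*, a relative of C1r, fell by 0.81 ± 0.11 to a median of 11.1 CPM. Exons of *C2* (42.8% of bases) and *Cfb* (79.5%) are also shared with the readthrough gene Gm20547 on the same strand, and 18.4% of *C1s1* exon bases with the antisense gene Gm16567. Neither was listed in the count tables. *C2* overlaps *Zbtb12* on the opposite strand over 4.16% of its exon bases.

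Cell type markers were read in the same groups. The summed level of 8 macrophage markers was 179 to 227 CPM in UNT, 406 to 784 in PBS and 426 to 708 in RGLS4326 kidneys. Of these 8, 7 were higher and 1 lower in PBS than in UNT, and 3 were lower and 1 higher in RGLS4326 than in PBS. Over all tested genes 43.1% were higher and 39% lower in PBS against UNT. In RGLS4326 against PBS 15.3% were higher and 18.5% lower. The 8 fibroblast markers summed to 527 to 1231 CPM in UNT, 2567 to 5457 in PBS and 3455 to 5086 in RGLS4326 kidneys, with 8 higher in PBS against UNT. Proximal tubule markers summed to 10428 to 14178 CPM in UNT, 1192 to 3448 in PBS and 2188 to 3784 in RGLS4326 kidneys, and all 8 were lower in PBS. Markers of the thick ascending limb and distal tubule summed to 8326 to 12555 CPM in UNT, 2710 to 5145 in PBS and 4121 to 5922 in RGLS4326 kidneys. Of these 8, 7 were lower and 1 higher in PBS than in UNT.

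The 8 collecting duct markers summed to 610 to 901 CPM in UNT, 675 to 1943 in PBS and 397 to 1671 in RGLS4326 kidneys, and the 8 endothelial markers to 700 to 860, 596 to 869 and 719 to 899. Neutrophil markers (7 of 8 found) summed to 1.67 to 7.81 CPM in UNT, 8.64 to 44.96 in PBS and 11.4 to 22.8 in RGLS4326 kidneys, and the granule genes *Mpo* and *Elane* were below 0.5 CPM in every library. T and B cell markers (7 of 8 found) summed to at most 29.3 CPM. Hepatocyte markers summed to 109 to 224 CPM in UNT, 66.4 to 183 in PBS and 91.6 to 176 in RGLS4326 kidneys, 4 of the 6 tested were lower and 1 higher in PBS against UNT, and *Cps1* and *Tat* were below 0.5 CPM in every UNT and PBS library. In RGLS4326 against PBS, 5 of 8 proximal tubule, 6 of 8 endothelial and 4 of 8 thick ascending limb and distal tubule markers were higher, with 1 of the last lower. In the same contrast 3 of 7 T and B cell, 3 of 8 collecting duct and 1 of 5 tested neutrophil markers were lower, and 1 of 8 fibroblast and 1 of 6 tested hepatocyte markers were higher. Over all tested genes 15.3% were higher and 18.5% lower in this contrast, so these counts of few genes are a description. The marker calls come from the fit with the 4 libraries that stood apart, without which 2.1% of all tested genes were called. With the percentage of reads outside genes as a covariate it was 0.569%. In whole kidney, a change in the number of cells of a type and in the RNA per cell cannot be told apart, and the part of these markers in the complement results was not tested.

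Within groups the 9 genes varied together in part. After the group means of log2(CPM + 1) were subtracted, Pearson's r over the 34 libraries ranged from −0.09 to 0.75 among the 36 pairs, with a median of 0.42 and 14 pairs above 0.5. The highest values joined *C1ra* with *C2*, *C3* and *C4b* (0.75 each) and with *C1s1* (0.74), as well as *C3* with *C1s1* (0.75). *Cfb* was apart from *C1s1* (−0.08) and *Cfp* (−0.07), and was closest to *C2* (0.65). With the summed macrophage markers r was 0.80 for *C3ar1*, 0.73 for *C4b*, 0.68 for *Cfp*, 0.66 for *C1ra*, 0.64 for *C2* and 0.49 for *C3*. With the fibroblast markers it was 0.68 for *C1s1*, 0.62 for *C3* and −0.31 for *Cfb*. With the neutrophil markers it was 0.65 for *Cfp*, 0.57 for *C3ar1* and 0.51 for *C4b*. Negative values were found with proximal tubule markers, at −0.71 for *Cfp*, −0.65 for *C4b* and −0.50 for *C3ar1*, and *Cfp* had −0.67 with those of the thick ascending limb and distal tubule. Both values of a pair come from the same library, and libraries differ in depth, run and reads outside genes, so the correlations are given as a description.

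**Figure D5:**
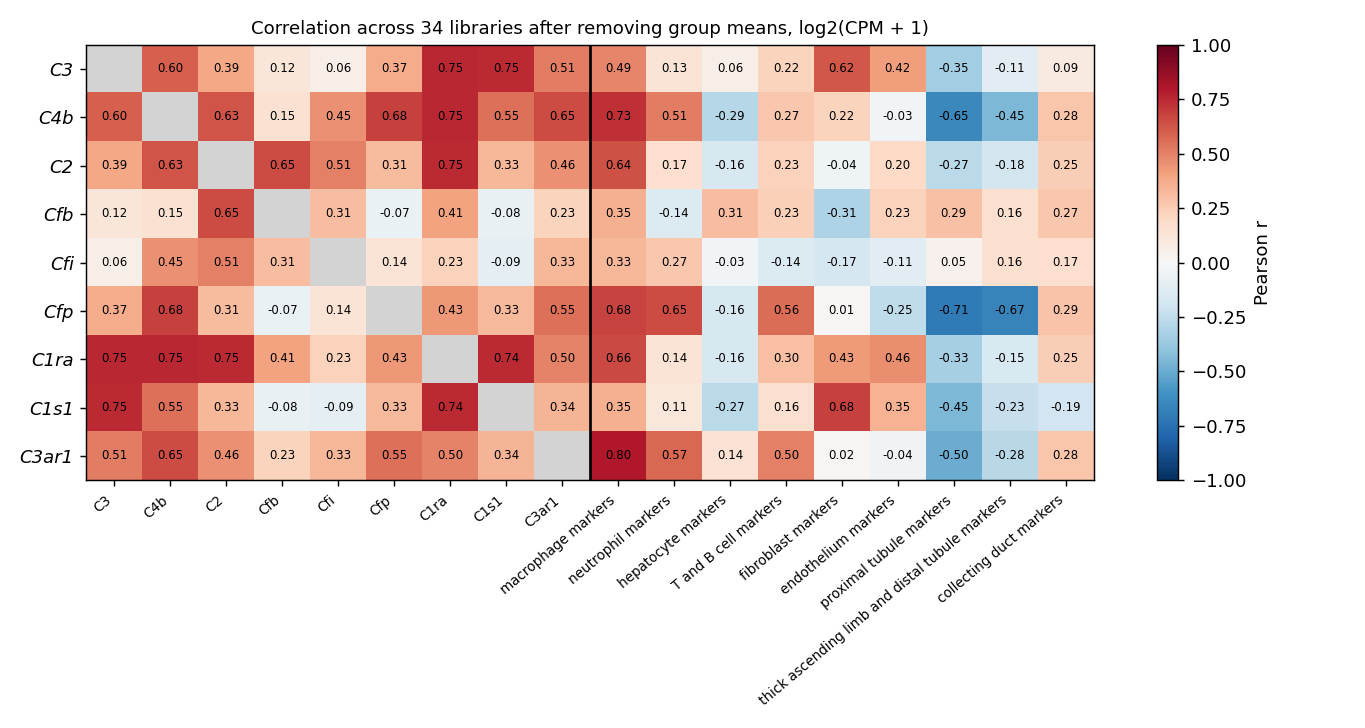
Pearson correlation over 34 libraries, after group means of log2(CPM + 1) were removed, of each of the 9 genes (rows) with the other members and with the summed level of 9 marker lists (columns right of the black line). *C3ar1*, *C4b* and *Cfp* are highest with macrophage markers (0.68 to 0.80), and *C1s1* and *C3* with fibroblast markers (0.62 to 0.68).

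Over all tested genes outside the 9, the most alike to *C3* was *Axl*, a receptor tyrosine kinase (r = 0.82), followed by *Gpr133* and *Ptgfrn* (0.78 and 0.76). For *C4b* they were *Hpse*, which encodes heparanase, *Adam8* and *Emilin2* (0.86, 0.85 and 0.85). *Cfp* was most like *Ncf4*, a subunit of the phagocyte oxidase (0.86), *Glipr1* (0.86) and *Basp1* (0.85). *C3ar1* was most like *Lcp2*, a signalling adaptor of haematopoietic cells (0.85), *Ifngr1*, a chain of the interferon-gamma receptor (0.85), and *Fcgr1*, a receptor for IgG and 1 of the 8 macrophage markers (0.85).

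*C1ra* was most like *Serping1*, the inhibitor of C1r and C1s and itself on the complement list (r = 0.86), then *St6gal1* and *Rrbp1* (0.85 and 0.83). *C1s1* was most like *Sh3kbp1* (0.81), *Hip1* (0.80) and *Sulf1* (0.80), and *C2* like *Mlph* (0.80) and *Fut2* (0.79). The genes nearest to *Cfb* were *Plxdc2*, *Ldhd* and *Lamp1* (0.82, 0.82 and 0.81). *Cfi* had the weakest neighbours, *Slc1a4*, *Tmem176b* and *Tmem176a* (0.62, 0.61 and 0.61).

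No difference between female and male mice passed the test for any of the 9 genes within a group in edgeR (lowest unadjusted p = 0.0971, *C4b* in PBS kidneys, males higher by 0.54 ± 0.32 on the log2 scale). The treatment difference of *C4b* in males minus that in females was −0.62 ± 0.45 (unadjusted p = 0.177). *C4b* ranged from 53.6 to 164 CPM in female and from 69.3 to 259 in male PBS kidneys, and from 32.4 to 68.3 in female and 30.2 to 67.1 in male RGLS4326 kidneys.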

How the data were processed

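Kidney polyadenylated RNA was sequenced from 34 mice. Per the labels and the study's methods, the authors made stranded mRNA libraries, read them as paired ends of 75 bases, trimmed them, mapped them with STAR to GRCm38 and counted uniquely mapped reads per gene with HTSeq (version 0.6.1); the annotation and the strand setting were not given in the sources used here. What the authors deposited is a table of unnormalized counts for each mouse, by gene symbol, and no tables were identical (0 pairs).

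The counts were scaled by TMM and tested with edgeR's quasi-likelihood test (version 4.0.16, R 4.3.3), after filterByExpr, in 1 fit of 3 groups without covariates. The p-values are two-sided and Benjamini-Hochberg adjusted over 15644 genes, a gene was called under 0.05, and SE is the log2 fold change over the root of F. CPM are TMM-scaled. The fit was also run on simulated counts, with the outcome not reported here. Labels name separate mice but no litters. Gene positions and UTRs came from GENCODE M21 (GRCm38), and symbols from RefSeq. Named beside the 9 genes were their copies, up to 10 list genes of lowest adjusted p under treatment, the 10 of largest change in disease, and the 3 most alike to each; some of these are not reported here. The 9 genes and all lists were chosen with earlier results of these data known. Alternatives were DESeq2 (version 1.42.0), RLE size factors, no filter, 2-group fits, runs, a replicate block, the percentage of reads outside genes, an added limit of 0.5 on the absolute log2 fold change and leaving out each library. After the data were seen, sex as a covariate and leaving out 4 libraries were added. Python 3.11.15 and matplotlib 3.10.9 drew the figures.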

Additional observations from a re-analysis of the deposited data

How the results depend on the processing

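Against UNT, all 9 genes kept their direction and their calls under every alternative run, with exceptions for *Cfb* only: −0.0090 in PBS against UNT in run 2 alone, and, in RGLS4326 against UNT, −0.34 in run 3 alone and −0.11 without the 4 RGLS4326 libraries with over 10% of reads in no gene, none of which passed; without any change of the fit, *Cfb* at −0.28 and −0.29 is also under a required log2 change of 0.5. Under treatment, leaving out each of the 34 libraries in turn kept 2 members called and 12 to 17 of the complement list, with *C4b* from −1.34 to −1.07 and *Cfp* from −0.60 to −0.45. Of the 13 other alternatives, 8 kept the count of members called and 5 moved it. Members called numbered 1 in run 1, 4 in run 2, 0 in run 3, 0 with the percentage of reads outside genes as covariate and 1 without the 4 libraries, and list genes called 2 in run 1, 0 in run 3, 2 with the covariate and 7 without the 4 libraries. Over all genes the calls under treatment went from 5280 to 54, 4065 and 0 in runs 1, 2 and 3, to 89 with the covariate and to 332 without the 4 libraries. The runs alone hold 3 or 4 mice a group. Not called were *C4b* in run 3 (−0.92) and with the covariate (−1.01), and *Cfp* in runs 1 to 3 (−0.56, −0.28, −0.75), with the covariate (−0.46) and without the 4 libraries (−0.54). Called in run 2 alone were *C3* (−0.86), *C2* (−0.49) and *Cfb* (−0.43). Signs turned only for values that were not called: *C3* (0.17) and *C2* (0.045) in run 3, *Cfi* in run 1 (0.019), *C1s1* in runs 1 and 2 (−0.11 and −0.013), *C1ra* in runs 1 and 2 (−0.065 and −0.24), with run (−0.0081) or sex (−0.0053) as covariate, and *Cfb* with no filter (0.0040), in runs 1 and 3 (0.20 and 0.11), with that covariate (0.13) and without the 4 libraries (0.17). With a library left out, *Cfb* ranged from −0.048 to 0.027 and *C1ra* from −0.034 to 0.044. The cause of these shifts was not tested.

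The replicate numbers name mice and do not pair them: same-numbered libraries had residual correlations of −0.42 to 0.45 (median −0.02, 10 of 33 pairs above 0.1). A fit with the replicate block called 9, 2 and 9 members, with *C4b* at −1.19 and *Cfp* at −0.51 under treatment, and changed no call of a member. Depth did not limit the 9 genes, whose lowest count was 27.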
